A study of Mus musculus with 18 samples.

Results

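The genes described here encode 7 molecules that bring circulating leukocytes to a stop on the vessel wall: Sele, Selp, Icam1 and Vcam1 on the endothelial side, and their counter-receptors Selplg, Itgal and Itga4 on the leukocyte side. They were chosen by gene name and are 7 of the 50600 genes in the count table, and all 7 passed the filter on low counts. The data are RNA sequencing of whole B16F10 tumors, a mouse melanoma line grown subcutaneously in the flank of C57BL/6 mice, taken 24 h after the last intratumoral (IT) injection. The mice were female and 5 to 6 weeks old when obtained, per the methods of the study. The agent was CDN2, a synthetic cyclic dinucleotide agonist of STING, an innate immune sensor that drives type I interferon and NF-κB signaling (named CL656 in the sample labels), given free or loaded into extracellular vesicles from HEK293 cells that overexpress the vesicle protein PTGFRN (exoCDN2). The 1-dose groups received exoCDN2 (0.1 µg), free CDN2 at 20 or at 100 µg, unloaded EVs or PBS, and after 2 doses given 3 days apart there were groups given PBS, exoCDN2 (0.1 µg), CDN2 (20 µg) and CDN2 in an amount that the labels do not state. Each of the 9 groups held 2 tumors, named as biological replicates in the methods, so 18 tumors were measured. No group received unloaded EVs for 2 doses, and exoCDN2 and free CDN2 were given in different amounts, so carrier and amount cannot be told apart between them.

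Leukocytes leave the blood in steps. Selectins displayed by activated endothelium catch sugar-bearing ligands such as PSGL-1 and let the cell roll, chemokines then switch its integrins to a binding state, and the integrins LFA-1 and VLA-4 hold it to ICAM-1 and VCAM-1 until it crosses the wall. In resting vessels the selectins, ICAM-1 and VCAM-1 are low, and inflammatory cytokines such as TNF and IL-1 raise their transcription through NF-κB. Lymphocytes and myeloid cells enter tumors by this route.

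The tumors carried 21608895 to 65983630 expected read counts each, the lowest being replicate 1 of the group given 2 doses of CDN2 (20 µg). That tumor also stood apart from its partner, with a Pearson correlation of 0.950 over genes and 27.4% of genes more than 2-fold apart, against 0.979 to 0.993 and 4.02% to 12.2% in the other groups. Results that rest on it are given with and without it. Levels are counts-per-million (CPM) values scaled by TMM factors, edgeR's library-size correction, listed as replicate 1 and then replicate 2. A sum over 18 endothelial marker genes (among them Cdh5, Kdr and Tie1) lay between 270 and 577 CPM in the 18 tumors, so endothelial RNA was present in all of them, and Sox17 in 1 tumor given 1 dose of CDN2 (20 µg) was the only endothelial marker at 0. Calls of a change required both a ratio over 2 and, in edgeR's quasi-likelihood test, an adjusted p below 0.05, and errors of log2 fold changes are standard errors (SE). Shares of all genes called are those of this test, and none is given beside counts from DESeq2 or other settings. In bulk tumors, fewer cells of a type and less RNA per cell cannot be told apart.

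After 1 dose of exoCDN2 the selectins had the highest fold changes against PBS of the 7 members. Sele encodes E-selectin, which is made by activated endothelium, and Selp encodes P-selectin, which endothelium and platelets store in granules. They lie next to each other on chromosome 1 in GRCm38, Sele (ENSMUSG00000026582) at chr1:164048234-164057677 and Selp (ENSMUSG00000026580) at chr1:164115264-164150026, both on the plus strand. To show what stands in front of the genes that were called after 1 dose of exoCDN2, the 250 bases before the RefSeq starts of Sele, Selp and Icam1 are printed here (GRCm38.p6, plus strand). These are chr1:164047984-164048233 for Sele, chr1:164115014-164115263 for Selp and chr9:21015690-21015939 for Icam1. Capitals mark the motif matches described next.
Sele: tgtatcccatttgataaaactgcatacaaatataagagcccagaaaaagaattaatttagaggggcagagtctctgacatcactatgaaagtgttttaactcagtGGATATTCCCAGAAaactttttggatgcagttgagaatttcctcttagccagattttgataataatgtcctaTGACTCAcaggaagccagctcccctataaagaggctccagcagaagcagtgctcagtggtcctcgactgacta
Selp: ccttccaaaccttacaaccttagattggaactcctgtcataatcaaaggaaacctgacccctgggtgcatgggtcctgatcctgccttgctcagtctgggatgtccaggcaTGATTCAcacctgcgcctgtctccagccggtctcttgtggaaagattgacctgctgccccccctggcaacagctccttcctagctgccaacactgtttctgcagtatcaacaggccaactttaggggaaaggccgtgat
Icam1: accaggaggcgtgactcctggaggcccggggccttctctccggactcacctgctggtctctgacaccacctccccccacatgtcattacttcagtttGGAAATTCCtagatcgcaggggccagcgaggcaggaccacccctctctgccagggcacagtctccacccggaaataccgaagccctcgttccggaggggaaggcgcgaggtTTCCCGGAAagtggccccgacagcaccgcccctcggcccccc

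Windows from 250 bases before to 50 after the start were held in the RefSeq table for 4 of the 7 members, these 3 and Itga4, and were searched on both strands for the NF-κB (kappa B) consensus, for the ISRE core GAAANNGAAA of interferon response, for the GAS core TTCNNNGAA bound by STAT dimers and for the AP-1 site TGANTCA. The window of Sele held a GAS core, TTCCCAGAA, from -140 to -132 relative to the start and an AP-1 site, TGACTCA, from -73 to -67. In front of Selp there was an AP-1 site, TGATTCA, from -139 to -133. The window of Icam1 held a GAS core, TTCCCGGAA, from -42 to -34. None of the 4 windows held the kappa B consensus or the ISRE core, and that of Itga4 held none of the 4 motifs. A looser kappa B-like pattern, GGANNTTCC, which was added after the windows had been read, matched GGATATTCC from -145 to -137 in Sele, overlapping its GAS core, and GGAAATTCC from -153 to -145 in Icam1. Of all 32851 windows in the table, 8.46% held the kappa B consensus, 3.44% the ISRE core, 8.3% the GAS core, 7.81% the AP-1 site and 4.26% the looser pattern. A match is a match of letters and was not measured as a bound site.

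Sele was close to the detection limit without treatment and was highest after 1 dose of exoCDN2. Its level was 0.109 and 0.119 CPM in the PBS tumors (5 and 6 reads) and 3.81 and 2.12 CPM after exoCDN2 (192 and 92 reads). It was 0.570 and 0.665 CPM after CDN2 (20 µg), 0.659 and 0.297 CPM after CDN2 (100 µg) and 0.324 and 0.050 CPM after unloaded EVs. All CDN2-treated tumors of the 1-dose groups lay above both PBS tumors, both exoCDN2 tumors lay above all others, and the EV tumors lay on either side of PBS. After 2 doses the levels were 0.0612 and 0.175 CPM with PBS, 0.351 and 0.282 CPM with exoCDN2, 0.112 and 0.106 CPM with CDN2 (20 µg) and 0.214 and 0.160 CPM where the amount was not labelled. In the order of the 9 group means, 1 dose of exoCDN2 came first at 2.96 ± 1.20 CPM (SD, n = 2), clear of CDN2 (20 µg) at 0.617 CPM, and every later pair of neighbours overlapped.

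Selp followed the same order at its top. It stood at 0.503 and 0.911 CPM after 1 dose of PBS, 18.7 and 7.50 CPM after exoCDN2, 3.54 and 5.15 CPM after CDN2 (20 µg), 3.91 and 5.09 CPM after CDN2 (100 µg) and 2.66 and 0.550 CPM after unloaded EVs. The replicates of the exoCDN2 group differed more than 2-fold, but the lower of them still exceeded every tumor of the other groups. After 2 doses it was 0.572 and 0.876 CPM with PBS, 1.67 and 1.3 CPM with exoCDN2, 1.18 and 0.743 CPM with CDN2 (20 µg) and 0.664 and 0.905 CPM where the amount was not labelled. The mean after 1 dose of exoCDN2 was 13.1 ± 7.89 CPM (SD, n = 2), and it did not overlap the 4.5 and 4.35 CPM of the 100 and 20 µg groups, which overlapped each other.

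**Figure D1:**
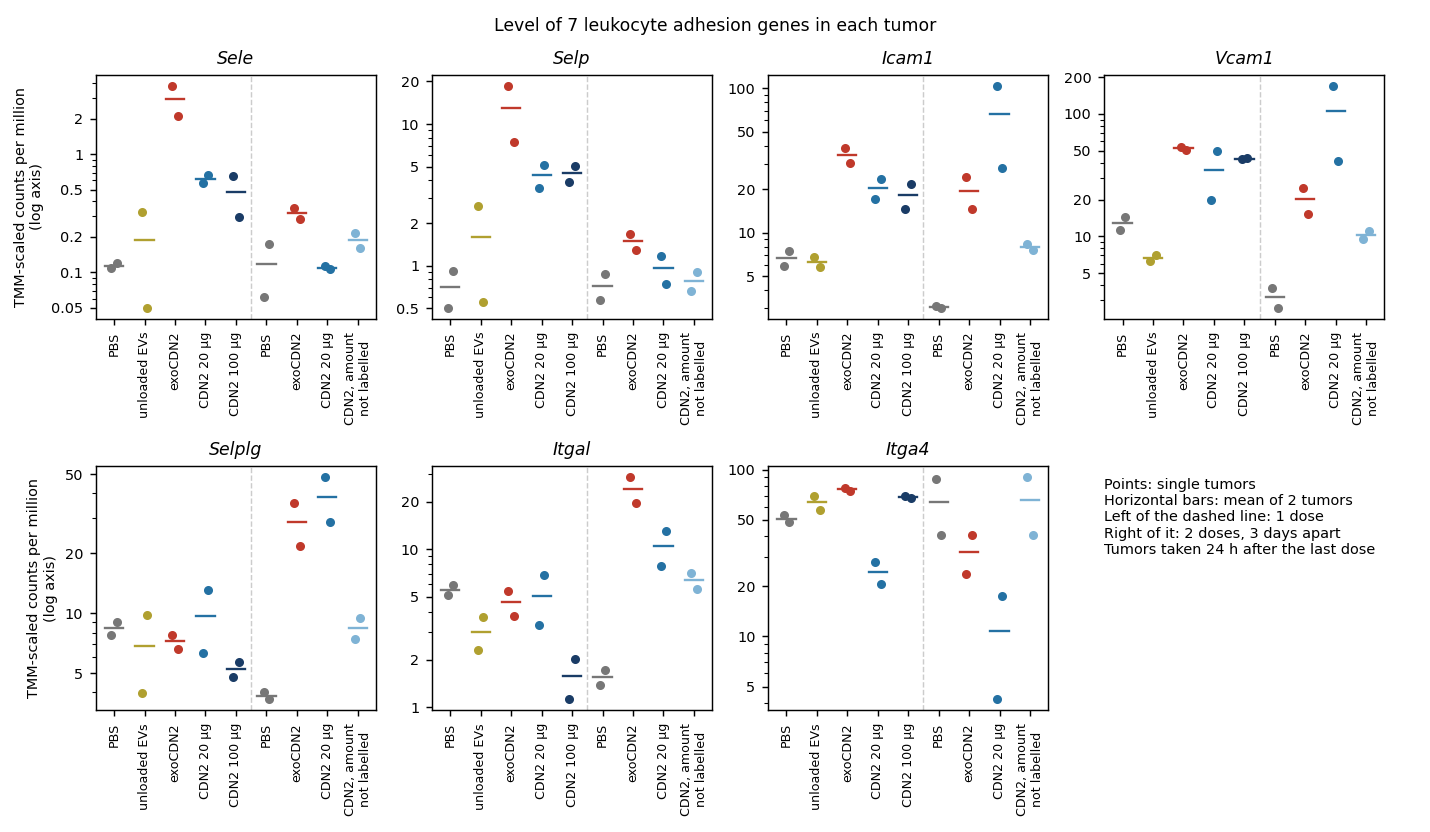
Level of each of the 7 genes in each of the 18 tumors, as TMM-scaled CPM on a log axis, by group; points are tumors and bars are group means. Sele and Selp were highest after 1 dose of exoCDN2, with both tumors above those of every other group, whereas Icam1, Vcam1 and Selplg had their highest group means after 2 doses of CDN2 (20 µg) and Itgal after 2 doses of exoCDN2.

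After 1 dose of exoCDN2, 3 of the 7 members were called against PBS, all of them higher, where 2.62% of the 16927 genes tested were called. The median log2 fold change was 2.03 over the 7 members and -0.02 over all genes. Sele was 25.3-fold higher, a log2 fold change of 4.66 ± 0.71 (edgeR, adjusted p = 0.0029). Selp was 18.4-fold higher, at 4.20 ± 0.68 (edgeR, adjusted p = 0.0043). Icam1, the ligand of LFA-1, rose with them by 2.36 ± 0.49 (edgeR, adjusted p = 0.0199). Vcam1 missed the threshold at 2.03 ± 0.56 (edgeR, adjusted p = 0.0754), with both exoCDN2 tumors above both PBS tumors. The 3 counter-receptor genes were not called: the 95% interval ran from -1.15 to 0.72 for Selplg, from -1.15 to 0.61 for Itgal and from -0.48 to 1.65 for Itga4. Leaving out either PBS tumor ended the calls of Sele and Selp, with adjusted p up to 0.0675 and 0.0944, and leaving out any of the 4 tumors ended that of Icam1, with adjusted p up to 0.217. Over all alternatives the adjusted p went down, in the fit without the low-count filter, to 3.4e-12 for Sele, 7.6e-24 for Selp and 1.3e-19 for Icam1, and the log2 fold changes lay between 4.18 and 5.02, 3.40 and 4.71, and 2.17 and 2.82. Such lowest values, here and below, show how far the settings differ. They come from the same 2 tumors a group and are not stronger evidence for a call.

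Markers of the cells that could carry these transcripts were read beside the selectins. The summed endothelial markers were 443 and 440 CPM with PBS and 407 and 450 CPM after exoCDN2, with none of the 18 called higher and 2 called lower, where 2.62% of all genes were called. Sele therefore moved from 0.0247% and 0.0270% of that sum to 0.935% and 0.471%. Selp moved from 0.114% and 0.207% to 4.58% and 1.67%. The summed markers of platelets and megakaryocytes, the other known source of P-selectin, were 57.8 and 55.2 CPM with PBS and 40.1 and 53.8 CPM after exoCDN2. After CDN2 (20 µg), where 3.14% of all genes were called, 8 of the 18 endothelial markers were called lower, with a median log2 fold change of -1.31. The sum over all 18 was 371 and 373 CPM. Summed neutrophil markers were 5.10 and 5.27 CPM with PBS, 67.2 and 40.8 CPM after exoCDN2, 14.6 and 34.1 CPM after CDN2 (20 µg) and 15.2 and 18.9 CPM after CDN2 (100 µg), and 3 of the 8 were called higher with exoCDN2. The part of these markers in the selectin and Icam1 levels was not tested.

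Unloaded EVs alone called none of the 7 members, and none of all genes tested (0%), although 540 genes had an unadjusted p below 0.05. No member had an unadjusted p below 0.05, and DESeq2 called 0 members. The largest interval was that of Sele, from -0.96 to 2.45 on the log2 scale, since 1 of the EV tumors held 15 reads of it and the other 2. Vcam1 was 6.35 and 7.05 CPM after EVs against 11.3 and 14.3 CPM after PBS, both EV tumors being lower, at a log2 fold change of -0.94 (edgeR, adjusted p = 1).

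Against unloaded EVs, the control for the vesicle itself, all 4 endothelial members were called higher with exoCDN2, where 2.95% of all genes were called. Selplg, Itgal and Itga4 were not called. The log2 fold change was 3.93 ± 0.67 for Sele (edgeR, adjusted p = 0.0059), 3.02 for Selp (0.0200), 2.45 for Icam1 (0.0155) and 2.97 for Vcam1 (0.0136). For Itgal it was 0.62, with an interval from -0.28 to 1.51, and for Itga4 0.26, with an interval from -0.81 to 1.32. The comparison shares its exoCDN2 tumors with that against PBS. The call of Sele held without each of the 4 tumors. That of Selp ended without replicate 2 of the EV tumors or replicate 1 of the exoCDN2 tumors (adjusted p up to 0.196), that of Icam1 without either EV tumor or replicate 1 of exoCDN2 (up to 0.163) and that of Vcam1 without any of the 4 (up to 0.123). Over all alternatives the lowest were 3.8e-14 for Selp, 4.3e-21 for Icam1 and 8.0e-34 for Vcam1.

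With free CDN2 after 1 dose, Selp was the member called at both amounts. DESeq2 called 3 members at 20 µg, 4 at 100 µg and 4 with exoCDN2, given without the share of all genes that it called. With CDN2 (20 µg) 1 of the 7 members was called against PBS, where 3.14% of all genes were called: Selp was 6.10-fold higher, at 2.61 ± 0.65 (edgeR, adjusted p = 0.0451). Sele was at 2.40 ± 0.72 (edgeR, adjusted p = 0.0933), Icam1 at 1.60 ± 0.48 (0.0979) and Vcam1 at 1.43 ± 0.55 (0.208), each with both tumors above both PBS tumors. Itga4 was lower in both tumors, at 28.0 and 20.7 CPM against 53.1 and 48.6 CPM, with a log2 fold change of -1.06 ± 0.50 (edgeR, adjusted p = 0.322). Leaving out any of the 4 tumors ended the call of Selp, with adjusted p up to 0.373, as did the replicate block (0.059), and over all alternatives it went down to 7.2e-10.

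With CDN2 (100 µg) 2 of the 7 members were called against the same PBS tumors, where 2.44% of all genes were called. Selp was 6.32-fold higher, a log2 fold change of 2.66 (edgeR, adjusted p = 0.0499). Itgal, the alpha chain of LFA-1, was lower, at 1.12 and 2.03 CPM against 5.14 and 5.94 CPM, a log2 fold change of -1.81 ± 0.43 (edgeR, adjusted p = 0.0436). Beside this, 4 of the 12 T cell markers were called lower, with a median log2 fold change of -3.33, and Cd5, Cd8a and Ubash3a were at 0 in 1 of these tumors. Their part in the fall of Itgal was not tested. Both calls ended when any of the 4 tumors was left out, with adjusted p up to 0.383 for Selp and 0.356 for Itgal, and that of Selp also with the replicate block (0.065). Over all alternatives the adjusted p went down to 3.3e-10 for Selp and 5.8e-07 for Itgal.

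**Figure D2:**
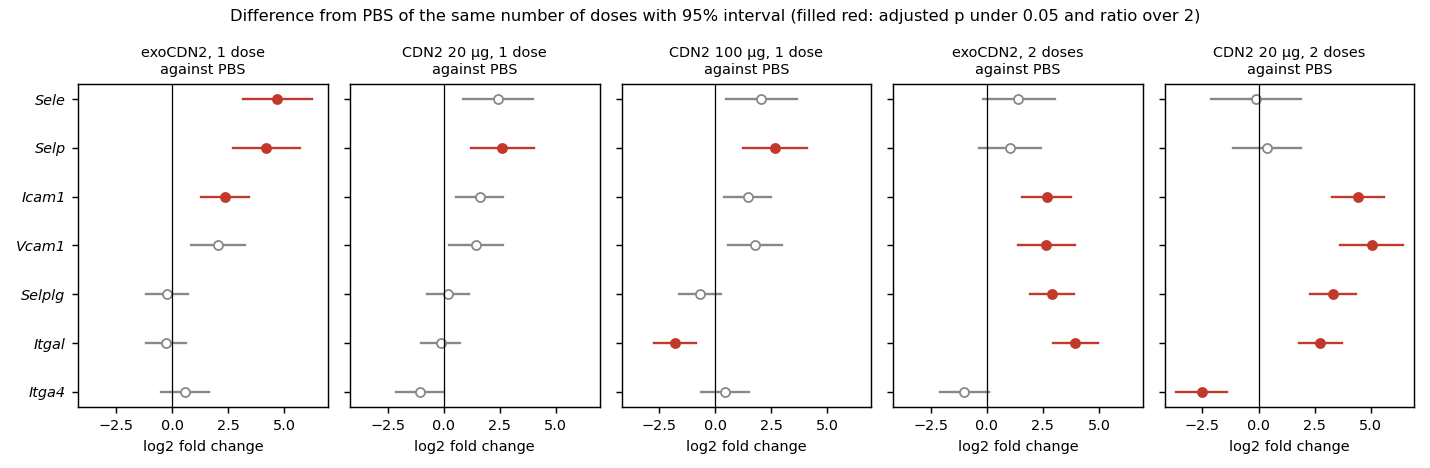
Log2 fold change of each member against the PBS tumors of the same number of doses, with 95% intervals from edgeR; filled points were called at an adjusted p below 0.05 and a ratio over 2. After 1 dose the selectins lay highest, at 4.66 and 4.20 for exoCDN2, whereas after 2 doses their intervals crossed 0 and Icam1, Vcam1, Selplg and Itgal were called higher.

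The direct comparison of the carriers after 1 dose called none of the 7 members, where 0.608% of all genes were called and 3300 genes had an unadjusted p below 0.05. Of the members, 3 had an unadjusted p below 0.05, and DESeq2 called 2, Sele and Itga4. Sele was 4.79-fold higher with exoCDN2 than with CDN2 (20 µg), at 2.26 ± 0.60 (edgeR, adjusted p = 0.0795), and Selp 3.01-fold higher, with an interval from 0.29 to 2.89 (0.172). Both exoCDN2 tumors exceeded both CDN2 tumors for each selectin. Of 69 further adhesion genes tested, 3 were called higher with exoCDN2 and 0 lower. These were vessel genes, Podxl at 2.81-fold, Pecam1 at 2.82-fold and Cdh5 at 2.89-fold. All 3 were also called higher with CDN2 (100 µg) than with CDN2 (20 µg). Their part in the selectin differences was not tested. For Icam1 the difference was 0.76, with an interval from -0.25 to 1.77, and for Vcam1 0.60, from -0.56 to 1.77. Itga4 was higher by 1.65 with exoCDN2, with an interval from 0.55 to 2.74 (edgeR, adjusted p = 0.108).

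Between the amounts of free CDN2 none of the 7 members was called either, where 0.455% of all genes were called and 2797 had an unadjusted p below 0.05. Among the members 2 had such a p, and DESeq2 called the same 2, Itgal and Itga4. For Selp the difference of 100 against 20 µg was 0.05 on the log2 scale, with an interval from -1.24 to 1.34. Itgal was lower at 100 µg, with a log2 fold change of -1.68 (edgeR, adjusted p = 0.0886), and Itga4 higher by 1.49 (0.168). Levels of Sele, Icam1 and Vcam1 overlapped between the amounts.

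Icam1 and Vcam1, the immunoglobulin-type ligands that integrins hold, stood higher in every CDN2-treated tumor than in the PBS tumors of the same number of doses and reached their highest values after 2 doses of free CDN2. Icam1 (ENSMUSG00000037405) lies at chr9:21015985-21028817 on the plus strand and Vcam1 (ENSMUSG00000027962) at chr3:116109949-116129688 on the minus strand. Besides endothelium, ICAM-1 is carried by many cells under inflammation, tumor cells and macrophages among them.

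After 1 dose, Icam1 was 5.91 and 7.53 CPM with PBS, 6.81 and 5.80 CPM with unloaded EVs, 38.7 and 30.3 CPM with exoCDN2, 17.1 and 23.7 CPM with CDN2 (20 µg) and 14.6 and 21.9 CPM with CDN2 (100 µg). After 2 doses it was 3.10 and 3.02 CPM with PBS, 24.2 and 14.5 CPM with exoCDN2, 105 and 28.2 CPM with CDN2 (20 µg) and 8.35 and 7.62 CPM where the amount was not labelled. Every CDN2-treated tumor exceeded every PBS tumor. The mean of 66.4 ± 54.0 CPM (SD, n = 2) after 2 doses of CDN2 (20 µg) rests on replicate 1, the tumor of lowest depth, and its group overlapped that of 1 dose of exoCDN2 at 34.5 ± 5.96 CPM. Below these, CDN2 (20 µg) after 1 dose, exoCDN2 after 2 doses and CDN2 (100 µg) overlapped one after the other at 20.4, 19.4 and 18.3 CPM.

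Vcam1 was 11.3 and 14.3 CPM after 1 dose of PBS, 54.2 and 50.8 CPM after exoCDN2, 19.8 and 49.5 CPM after CDN2 (20 µg) and 42.6 and 43.6 CPM after CDN2 (100 µg). After 2 doses it was 3.80 and 2.61 CPM with PBS, 25.0 and 15.2 CPM with exoCDN2, 170 and 41.4 CPM with CDN2 (20 µg) and 9.47 and 11 CPM where the amount was not labelled. As with Icam1, replicate 1 of the last CDN2 (20 µg) group stood far above all other tumors, and its partner lay below the exoCDN2 tumors of 1 dose. The PBS tumors of 2 doses were the lowest of all 18.

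Selplg and Itgal, carried by leukocytes, had their highest group means after 2 doses. Selplg (ENSMUSG00000048163, chr5:113818536-113832644, minus strand) encodes PSGL-1, the common ligand of the selectins on leukocytes. It was 7.77 and 9.01 CPM after 1 dose of PBS, 7.81 and 6.62 CPM after exoCDN2, 6.29 and 13.1 CPM after CDN2 (20 µg), 4.78 and 5.66 CPM after CDN2 (100 µg) and 3.98 and 9.77 CPM after unloaded EVs. After 2 doses it was 4.0 and 3.70 CPM with PBS, 35.9 and 21.8 CPM with exoCDN2, 48.4 and 28.7 CPM with CDN2 (20 µg) and 7.39 and 9.48 CPM where the amount was not labelled. The groups given 2 doses of exoCDN2 and of CDN2 (20 µg) overlapped each other and lay above all other tumors.

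Itgal (ENSMUSG00000030830, chr7:127296260-127335138, plus strand) encodes the alpha chain of LFA-1, which T cells, natural killer (NK) cells and other leukocytes carry. After 1 dose it was 5.14 and 5.94 CPM with PBS, 5.45 and 3.75 CPM with exoCDN2, 3.30 and 6.81 CPM with CDN2 (20 µg) and 2.31 and 3.70 CPM with unloaded EVs. After 2 doses it was 1.39 and 1.73 CPM with PBS, 28.6 and 19.6 CPM with exoCDN2, 7.85 and 13.1 CPM with CDN2 (20 µg) and 7.05 and 5.62 CPM where the amount was not labelled. The exoCDN2 tumors came first at 24.1 CPM and did not overlap those of CDN2 (20 µg) at 10.5 CPM, which in turn lay above all remaining tumors.

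Itga4 (ENSMUSG00000027009, chr2:79255426-79333123, plus strand) went another way. It encodes the alpha chain of VLA-4, which lymphocytes and monocytes carry and which many melanoma lines carry as well. It was 53.1 and 48.6 CPM after 1 dose of PBS, 69.9 and 57.7 CPM after unloaded EVs, 78.1 and 74.5 CPM after exoCDN2, 28.0 and 20.7 CPM after CDN2 (20 µg) and 69.1 and 67.6 CPM after CDN2 (100 µg). After 2 doses it was 88 and 40.7 CPM with PBS, 23.5 and 40.8 CPM with exoCDN2, 4.20 and 17.5 CPM with CDN2 (20 µg) and 90.5 and 40.9 CPM where the amount was not labelled. The tumors given 2 doses of CDN2 (20 µg) were lower than all others, and 1 dose of exoCDN2 had the highest mean at 76.3 CPM, although single tumors of other groups exceeded it. Itgb1, the beta chain of VLA-4, ranged from 502 to 886 CPM over the 18 tumors.

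Set against each other per gene length, the 7 members differed widely in untreated tumors. With 1 dose of PBS the mean RPKM, which is CPM per kilobase of gene length, were 3.64 for Itga4, 1.96 for Selplg, 1.54 for Icam1, 1.44 for Vcam1, 0.844 for Itgal, 0.160 for Selp and 0.0392 for Sele. After 1 dose of exoCDN2 the order by level was Icam1 at 7.91 RPKM, Vcam1 at 5.92, Itga4 at 5.46, Selp at 2.96, Selplg at 1.69, Sele at 1.02 and Itgal at 0.700. At its highest group mean Sele thus stayed below Icam1 in RPKM.

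After 2 doses of exoCDN2, 4 of the 7 members were called higher than PBS, where 11.3% of all genes were called. Itgal was 15.4-fold higher, a log2 fold change of 3.95 ± 0.45 (edgeR, adjusted p = 0.00015), and Selplg 7.48-fold higher, at 2.90 ± 0.46 (0.0011). Icam1 was 6.31-fold higher, at 2.66 ± 0.50 (edgeR, adjusted p = 0.0036), and Vcam1 6.25-fold higher, at 2.64 ± 0.58 (0.0084). For Sele the log2 fold change was 1.40, with an interval from -0.16 to 3.02, and for Selp 1.03, from -0.36 to 2.43, in both cases with both tumors above both PBS tumors. The interval for Itga4 ran from -2.08 to 0.08. The calls of Itgal, Selplg and Icam1 held without each of the 4 tumors, and that of Vcam1 ended without replicate 1 of exoCDN2 or replicate 2 of PBS, with adjusted p up to 0.0918. It also ended when the PBS tumors of 1 and 2 doses were pooled, at 1.32 (adjusted p = 0.17), and its adjusted p went down to 5.9e-27 over all alternatives.

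With CDN2 (20 µg) after 2 doses 5 of the 7 members were called against PBS, where 30.6% of all genes were called. Vcam1 was 33.1-fold higher, a log2 fold change of 5.05 ± 0.64 (edgeR, adjusted p = 0.00013), and Icam1 21.7-fold higher, at 4.44 ± 0.54 (0.0001). Selplg rose by 3.32 ± 0.46 (edgeR, adjusted p = 0.00022) and Itgal by 2.76 ± 0.44 (0.00044). Itga4 fell by 2.53 on the log2 scale, with an SE of 0.52 (edgeR, adjusted p = 0.0021), which is 5.79-fold. The selectins were not called, with intervals from -2.13 to 1.92 for Sele, which had 2 and 4 reads in these tumors, and from -1.13 to 1.88 for Selp. All 5 calls held without each of the 4 tumors. Without replicate 1 of CDN2 (20 µg), the tumor that stood apart, Vcam1 was at 3.69, Icam1 at 3.20, Selplg at 2.90, Itgal at 3.07 and Itga4 at -1.88.

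Between the carriers after 2 doses, 4 of the 7 members were called, where 19.4% of all genes were called. Icam1 and Vcam1 were lower with exoCDN2 than with CDN2 (20 µg), at -1.78 (edgeR, adjusted p = 0.0144) and -2.40 (0.0082), whereas Itgal was 2.28-fold higher (0.0367) and Itga4 2.89-fold higher (0.0347). Selplg was not called, with an interval from -1.34 to 0.50. Each of the 4 calls ended without replicate 1 of CDN2 (20 µg) or without replicate 2 of exoCDN2, and that of Itgal also without replicate 1 of exoCDN2. Over the omissions Icam1 ranged from -2.44 to -0.56, Vcam1 from -3.09 to -1.06, Itgal from 0.87 to 1.62 and Itga4 from 0.87 to 2.94. Without replicate 1 of CDN2 (20 µg) in particular, Icam1 was at -0.56, Vcam1 at -1.06 and Itga4 at 0.87.

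Leukocyte markers rose beside Selplg and Itgal. Of all genes, 11.3% were called against PBS after 2 doses of exoCDN2 and 30.6% after CDN2 (20 µg). The sum over 10 general leukocyte markers (among them Ptprc and Coro1a) was 204 and 223 CPM after 2 doses of PBS, 684 and 510 CPM after exoCDN2 and 735 and 445 CPM after CDN2 (20 µg), with 9 of the 10 called higher in each. Relative to that sum Selplg went from 1.96% and 1.66% with PBS to 5.25% and 4.27% with exoCDN2 and 6.58% and 6.45% with CDN2. Itgal went from 0.680% and 0.775% to 4.19% and 3.84% with exoCDN2 and 1.07% and 2.94% with CDN2. In every tumor given 2 doses of exoCDN2 or CDN2 (20 µg), both percentages lay above those of both PBS tumors of 2 doses. After 1 dose of PBS the leukocyte sum was 281 and 295 CPM and Itgal was 5.14 and 5.94 CPM. In replicate 1 of CDN2 (20 µg) they were 735 and 7.85 CPM, a lower share for Itgal than in either of those PBS tumors. The shares of Itgal in the other treated tumors, and of Selplg in all of them, were higher than after 1 dose of PBS.

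The markers of single leukocyte classes differed between the carriers. Summed T cell markers were 6.94 and 6.72 CPM after 2 doses of PBS, 70.0 and 54.7 CPM after exoCDN2 and 25.6 and 29.3 CPM after CDN2 (20 µg). Those of NK cells were 31.2 and 22.1 CPM after exoCDN2 and 8.69 and 12.4 CPM after CDN2, and 1.07 to 6.15 CPM in all other tumors. Itgal, relative to the T cell sum, was 20.0% and 25.7% with PBS, 40.9% and 35.8% with exoCDN2 and 30.7% and 44.6% with CDN2, which overlapped. The T cell sum did not follow each of its markers. After 1 dose of CDN2 (100 µg) it was 9.93 and 9.87 CPM against 15.1 and 19.4 CPM with PBS, a smaller fall than that of the median marker given above. Summed neutrophil markers were 961 and 219 CPM after 2 doses of CDN2 against 72.2 and 23.6 CPM after exoCDN2, higher in the same tumor that held most Icam1 and Vcam1. Summed monocyte and macrophage markers were 1295 and 661 CPM after 2 doses of CDN2, 849 and 551 CPM after exoCDN2 and 208 and 182 CPM after PBS. For fibroblasts and pericytes the sums were 1878 and 892 CPM after CDN2, 1012 and 473 CPM after exoCDN2 and 413 and 385 CPM after PBS. Both sums were highest in that same tumor too. Summed melanoma markers were 7713 and 13654 CPM after 2 doses of CDN2 and 15981 and 17289 CPM after exoCDN2, against 21171 to 26762 CPM in the other tumors. In the group given 1 dose of CDN2 (20 µg), where Itga4 was also below PBS, they were 23668 and 23706 CPM, above both PBS tumors. The part of these markers in the members' changes was not tested.

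**Figure D3:**
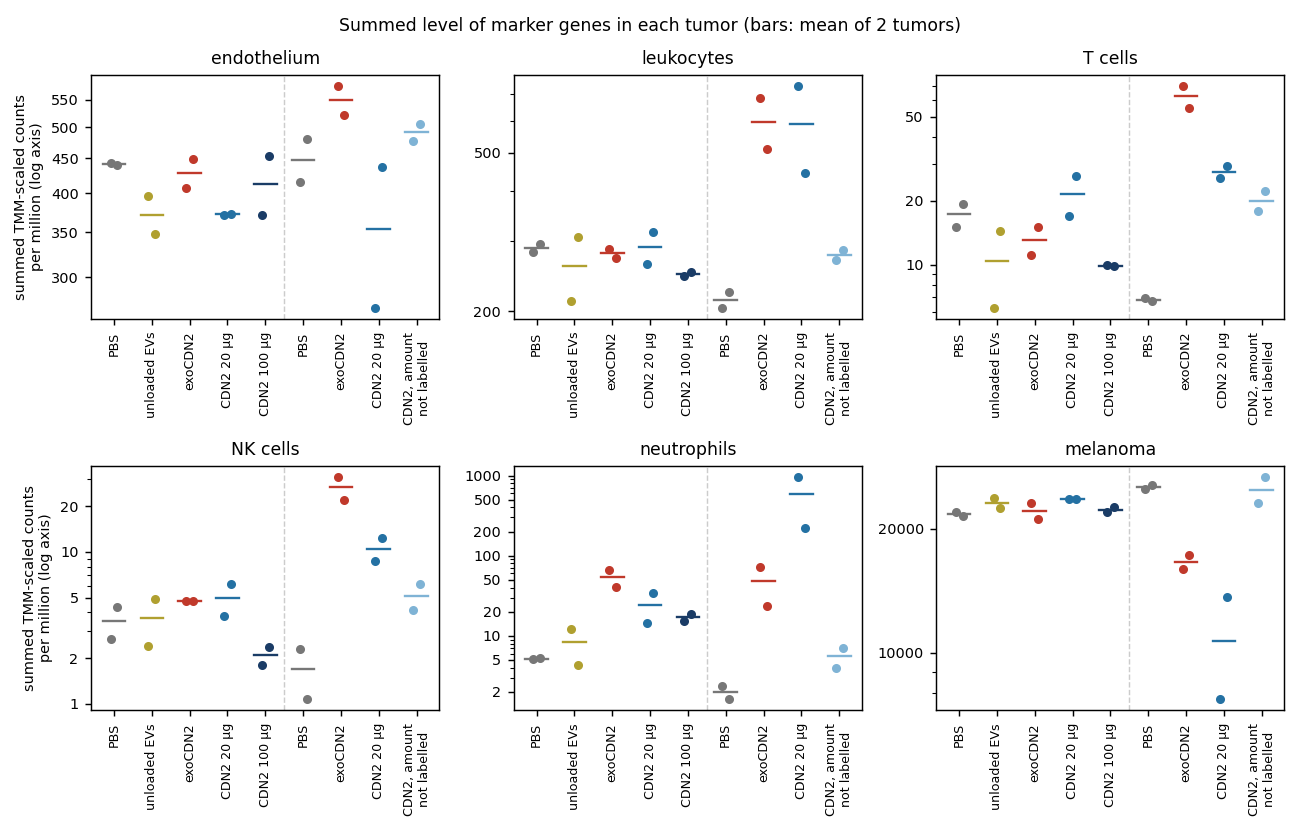
Summed marker levels of the cell types that can carry the 7 genes, in TMM-scaled CPM on a log axis, for each tumor by group. Endothelial sums lay between 270 and 577 CPM throughout, whereas T cell sums were highest after 2 doses of exoCDN2, at 70.0 and 54.7 CPM, and neutrophil sums after 2 doses of CDN2 (20 µg), at 961 and 219 CPM. After 1 dose of CDN2 (20 µg) the endothelial sum hid falls of single markers, among them Cdh5 (log2 fold change -1.32 against PBS) and Pecam1 (-1.31).

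**Figure D4:**
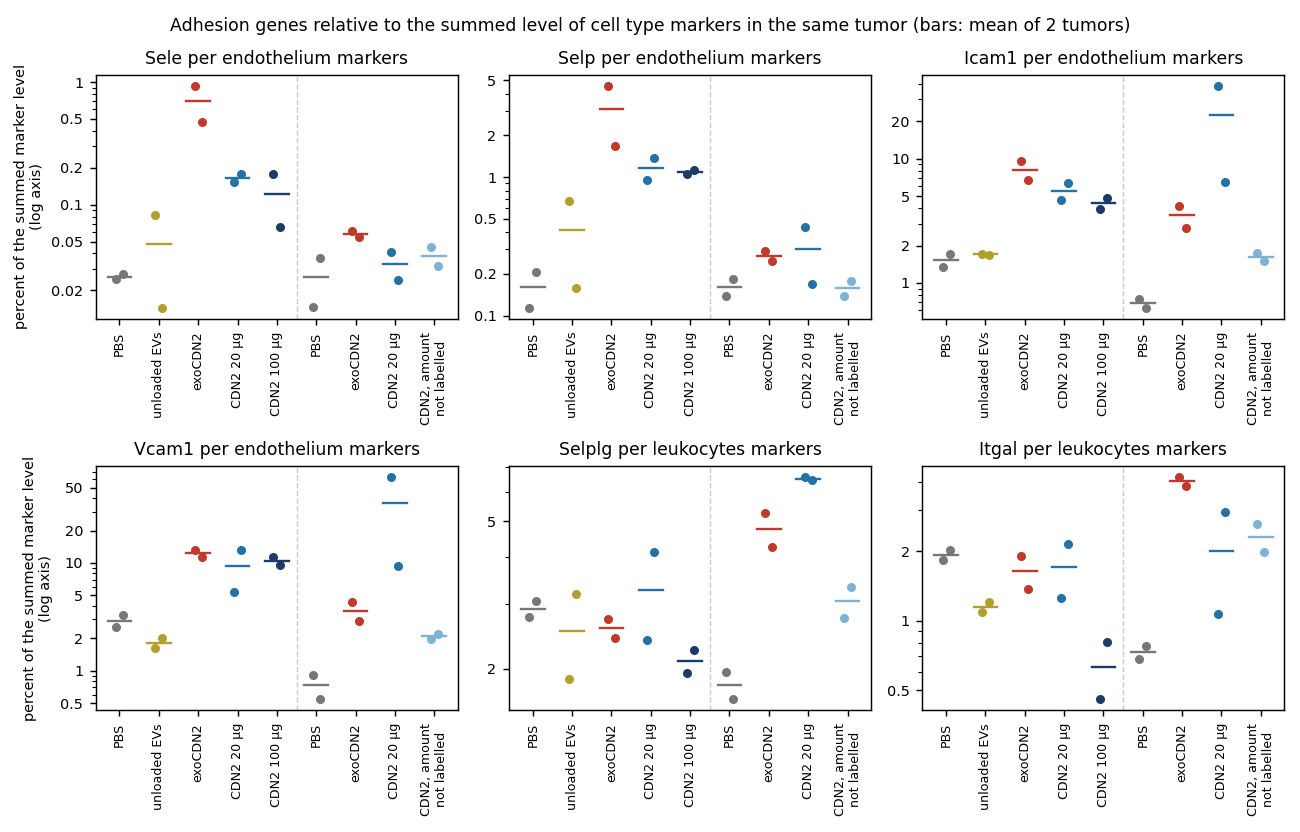
Levels of the members as a percent of the summed endothelial or leukocyte markers of the same tumor, on a log axis; points are tumors. Sele and Selp reached 0.935% and 4.58% of the endothelial sum after 1 dose of exoCDN2. Selplg lay between 4.27% and 6.58% of the leukocyte sum after 2 doses of exoCDN2 or CDN2 (20 µg) against 1.66% and 1.96% after 2 doses of PBS. The endothelial sum did not follow each of its markers, several of which fell after 1 dose of CDN2 (20 µg).

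Tumors of 2 doses differed from tumors of 1 dose in directions that varied by member. The PBS tumors differed between doses too, as given below. In exoCDN2 tumors, 2 doses against 1 called 4 of the 7 members, where 7.44% of all genes were called: Sele and Selp fell, and Selplg and Itgal rose. Sele was 9.34-fold lower, a log2 fold change of -3.22 (edgeR, adjusted p = 0.0078), and Selp 8.81-fold lower, at -3.14 (0.0094). Selplg was 3.99-fold higher, at 2.00 (edgeR, adjusted p = 0.0135), and Itgal 5.23-fold higher, at 2.39 (0.0050). Icam1 was at -0.84 (edgeR, adjusted p = 0.272) and Vcam1 at -1.39 (0.118), and Itga4 was at -1.24 (0.125), lower in both 2-dose tumors. The calls ended without replicate 1 of either exoCDN2 group for all 4 genes, without replicate 2 of the 2-dose group for Selp, and without replicate 2 of the 1-dose group for Selplg and Itgal. The highest adjusted p was then 0.0910 for Sele, 0.106 for Selp, 0.133 for Selplg and 0.0569 for Itgal, and over all alternatives the lowest were 1.5e-07, 3.8e-15, 2.5e-12 and 1.1e-12.

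In CDN2 (20 µg) tumors the same step called 5 of the 7 members, where 20.8% of all genes were called. Sele and Selp fell here too, at -2.47 (edgeR, adjusted p = 0.0298) and -2.21 (0.0227). Selplg was 3.98-fold higher (edgeR, adjusted p = 0.0053), Icam1 3.26-fold higher (0.0163) and Vcam1 3.07-fold higher (0.0370), the last with overlapping tumors. Itgal at 1.06 and Itga4 at -1.13 were not called (edgeR, adjusted p = 0.0593 and 0.0991). Endothelial markers stood lower in the 1-dose tumors, and 12 of the 18 were called higher after 2 doses, with a median log2 fold change of 1.24, which was not tested for its part in these values. The calls of Sele and Selp ended without any of the 4 tumors, with adjusted p up to 0.0960 and 0.0884. Those of Icam1 and Vcam1 ended without replicate 1 of either group, at values down to 0.47 and 0.26, and that of Selplg without replicate 1 of the 1-dose group (adjusted p = 0.0585). With the replicate block Vcam1 was at 1.53 (adjusted p = 0.063). Over all alternatives the lowest adjusted p was 0.0018 for Sele, 9.5e-08 for Selp, 2.9e-10 for Icam1, 1.5e-10 for Vcam1 and 7.0e-12 for Selplg. The highest for Selplg was 0.0645.

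PBS tumors of 2 doses differed from those of 1 dose as well, although none of the 7 members was called, where 1.1% of all genes were called and 1768 had an unadjusted p below 0.05. Of the members, 4 had such a p, and DESeq2 called 2, Vcam1 and Itgal. Icam1 was at -1.13 (edgeR, adjusted p = 0.436), Vcam1 at -2.0 (0.162), Selplg at -1.12 (0.362) and Itgal at -1.83 (0.0719), each lower in both 2-dose tumors than in both 1-dose tumors. Levels of Sele, Selp and Itga4 overlapped between them. The fold changes against PBS given for 1 and for 2 doses therefore start from different control levels.

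Whether an effect against PBS differed between 1 and 2 doses was therefore tested as a difference of differences. For exoCDN2 this called 2 of the 7 members, where 6.82% of all genes were called: Selplg at 3.12 (edgeR, adjusted p = 0.0102) and Itgal at 4.22 (0.0019), both with a larger effect after 2 doses. Sele was at -3.26 ± 1.03 (edgeR, adjusted p = 0.0764) and Selp at -3.17 (0.0535), so the lower effects on the selectins after 2 doses missed the threshold in this test. For CDN2 (20 µg) it called 4, where 16.8% of all genes were called: Icam1 at 2.84 (edgeR, adjusted p = 0.0143), Vcam1 at 3.62 (0.0100), Selplg at 3.12 (0.0068) and Itgal at 2.89 (0.0075). Sele and Selp stood at -2.51 and -2.24 there (edgeR, adjusted p = 0.135 and 0.105). Without replicate 1 of the 2-dose CDN2 tumors, the tumor that stood apart, Icam1 was at 1.59, Vcam1 at 2.25, Selplg at 2.68 and Itgal at 3.19, all still called. The call of Selplg for exoCDN2 ended without replicate 1 of the 2-dose tumors (adjusted p = 0.0527), and that of Icam1 for CDN2 without replicate 1 of the 1-dose CDN2 tumors or replicate 2 of the 1-dose PBS tumors (up to 0.0652). Over all alternatives these went down to 3.0e-15 and 5.1e-14.

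**Figure D5:**
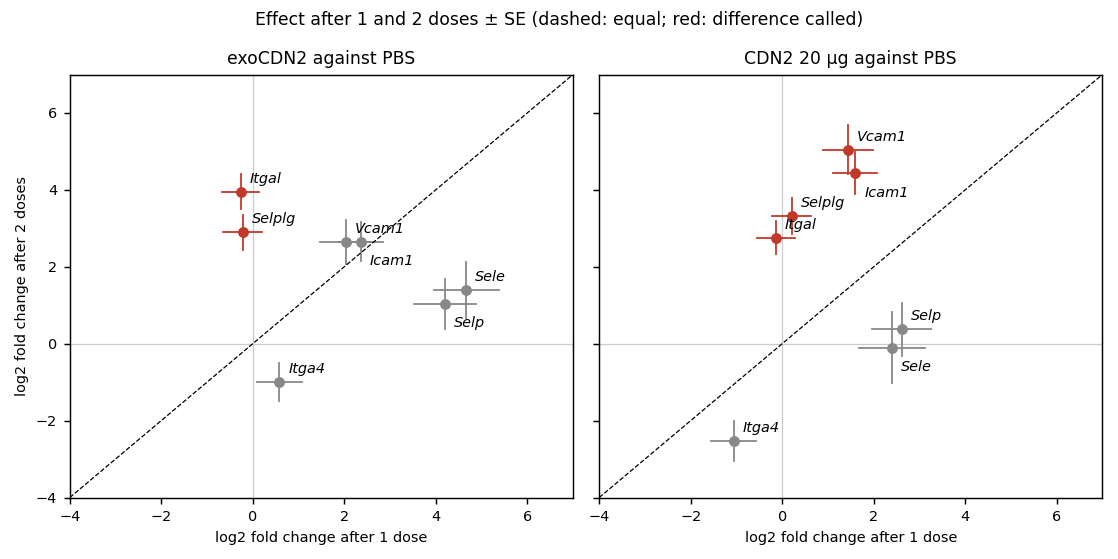
Log2 fold change against PBS after 1 dose (x axis) and after 2 doses (y axis) for the 7 members, for exoCDN2 and for CDN2 (20 µg); crosses are ± SE, the dashed line marks equal effects, and red marks a called difference between doses. With exoCDN2 the selectins lie below the line, at 4.66 and 4.20 on the x axis, and Selplg and Itgal above it, whereas with CDN2 (20 µg) Icam1 and Vcam1 lie above it too.

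The tumors given 2 doses of CDN2 in an amount not stated were compared with PBS in a fit of all 18 tumors. This called 1 of the 7 members, where 0.959% of all genes were called: Itgal was 4.06-fold higher, at 2.02 (edgeR, adjusted p = 0.0320). The call ended without any of the 4 tumors. Over all alternatives its log2 fold change lay between 0.83 and 2.19 and its adjusted p between 1.7e-07 and 0.674. Icam1 at 1.38, Vcam1 at 1.67 and Selplg at 1.13 were above PBS in both tumors and were not called (edgeR, adjusted p = 0.270, 0.238 and 0.351).

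The rest of the adhesion cascade was read as 73 further genes in 7 lists, of which 69 could be tested. After 1 dose of exoCDN2, 13 were called higher than PBS and 0 lower, where 2.62% of all genes were called. Of the 13, 7 belong to the 9 genes of the NF-κB response, which had a median log2 fold change of 2.49. Its members Tnfaip3, an inhibitor of NF-κB signaling, Birc3 and Bcl3 rose by 3.50, 2.98 and 3.12. The cytokines that induce endothelial adhesion molecules rose beside them, Tnf by 4.01 ± 0.61 (edgeR, adjusted p = 0.0030) and Il1b by 5.43 (0.0034). Tnf was 1.25 and 1.39 CPM with PBS and 21.3 and 21.3 CPM after exoCDN2. Ackr1, a chemokine-binding receptor of venular endothelium, rose by 3.65 (edgeR, adjusted p = 0.0277).

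With CDN2 (20 µg) after 1 dose 11 of the 69 were called higher and 5 lower, where 3.14% of all genes were called. The NF-κB response again had 7 of 9 higher. Tnf rose by 3.66 and Il1b by 4.13. The 5 that were lower were Podxl (-1.15), which encodes a sialomucin of the vessel surface, the sulfotransferase gene Chst2 (-2.54), and Pecam1 (-1.31), Esam (-1.27) and Cdh5 (-1.32), which encode junction proteins and are also among the endothelial markers. Against these tumors, exoCDN2 was higher for Podxl by 1.49, for Pecam1 by 1.49 and for Cdh5 by 1.53. So was CDN2 (100 µg), for Podxl by 1.67, Pecam1 by 1.56, Esam by 1.24 and Cdh5 by 1.67. Between these amounts 0.455% of all genes were called. CDN2 (100 µg) called 7 higher and 2 lower than PBS, where 2.44% of all genes were called. The lower 2 were Spn (-2.53), the sialomucin CD43 of leukocytes, and Vav1 (-1.63), a signaling protein of hematopoietic cells. Unloaded EVs called 0 in either direction, where 0% of all genes were called.

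After 2 doses exoCDN2 called 25 of the 69 cascade genes higher than PBS and 0 lower, where 11.3% of all genes were called. Of the 6 further integrin subunits tested, 3 rose, namely Itgb2, the beta chain of LFA-1, by 2.62, Itgb7 by 3.57 and Itgam by 2.81. Of the 15 genes of integrin activation 8 rose, among them Rasgrp1 by 3.21, Fyb by 3.24 and Vav1 by 2.88. Fut7, a fucosyltransferase that builds selectin ligands, rose by 2.60. CDN2 (20 µg) called 34 higher and 1 lower, where 30.6% of all genes were called. Itgb2 was at 2.05, Itgb7 at 3.64 and Itgam at 2.70, and the lower gene was Tln1 (-1.04), which links integrins to actin. From 1 to 2 doses of exoCDN2, where 7.44% of all genes were called, 5 of the 9 NF-κB response genes fell, with a median of -1.40, and Tnf fell by 2.56.

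The genes whose levels followed each member most closely were named by Pearson correlation of log2 CPM over the 18 tumors and 17110 genes. These tumors share treatments and libraries, so the values are a description. Sele and Selp were each other's nearest gene, at 0.93, followed by Hivep2 (0.87) and Tm4sf19 (0.86) for Sele and by Taf7 (0.90) and Cgas (0.90) for Selp. Nearest to Icam1 were Socs3 (0.98), Gch1 (0.97) and Il1rn (0.97), and nearest to Vcam1 were Ccl3 (0.97), Map3k8 (0.97) and Icam1 (0.96). Selplg lay nearest to Ly6a, Ly6e and Cd52 (0.98 each), of which Cd52 is in the leukocyte marker list. Itgal lay nearest to Il2rb (0.96), Ikzf3 (0.95) and Fasl (0.95), and Itga4 to Stil, Canx and Dnajc3 (0.97 each). Between members, Selplg and Itgal were at 0.86, Selplg and Itga4 at -0.78, Sele and Icam1 at 0.48, and Sele and Itgal at -0.03.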

How the data were processed

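RNA of 18 tumors was sequenced on Illumina instruments from standard libraries. The authors aligned reads to the mouse genome GRCm38 (mm10) with OSA in OmicSoft ArraySuite 10.1 and quantified genes of Ensembl release 88 with RSEM, and deposited them as RSEM expected counts per gene. Of these expected counts, 8.75% to 12.7% per tumor were not whole, and all were rounded to whole numbers. GENCODE M21 gave symbols and lengths to 50376 of 50600 gene identifiers. Genes were kept by filterByExpr (minimum count 10, minimum total 15), scaled by TMM and tested with edgeR 4.0.16 in R 4.3.3 (quasi-likelihood, Benjamini-Hochberg over all genes). The fit held the 16 tumors of the 8 groups with a labelled amount, 16927 genes and 8 residual degrees of freedom (common biological coefficient of variation 0.22). The group without an amount was tested in a fit of all 18 tumors with 17110 genes. A permutation test of 2 against 2 tumors cannot go below 0.333, so single genes were not tested that way.

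All 7 members are reported. Of the 7 cascade lists, at most 3 called genes in each direction per list and comparison are named, by p. The members and lists were chosen with earlier results of these data known. Promoter windows came from RefSeq. Alternatives were DESeq2 1.42.0, its size factors (RLE) in edgeR, no low-count filter, all 18 tumors in 1 fit, the compared groups alone, PBS tumors pooled, a replicate block, no ratio limit and each tumor left out, where a lone tumor is assumed to vary like the other groups. The edgeR steps were tested on simulated counts. The comparisons against PBS of the same number of doses share their PBS tumors. A cascade gene that the naming rule selected is not reported here.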

Additional observations from a re-analysis of the deposited data

Results flagged for a closer look

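The effect of treatment against PBS differed between 1 and 2 doses for 4 members, by a test of the difference itself in edgeR, with values on the log2 scale. For exoCDN2 the effect after 2 doses exceeded that after 1 dose by 3.12 for Selplg and by 4.22 for Itgal. For CDN2 (20 µg) it exceeded it by 2.84 for Icam1, 3.62 for Vcam1, 3.12 for Selplg and 2.89 for Itgal. Without replicate 1 of the 2-dose CDN2 (20 µg) tumors, which stood apart from its partner, these were 1.59 for Icam1, 2.25 for Vcam1, 2.68 for Selplg and 3.19 for Itgal. Both PBS tumors of 2 doses lay below both of 1 dose for these 4 genes, none of them called, and this enters each value.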

How the results depend on the processing

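With 2 tumors a group, the calls that held without each tumor were Sele for exoCDN2 against unloaded EVs, Itgal, Selplg and Icam1 for 2 doses of exoCDN2, all 5 for 2 doses of CDN2 (20 µg), and Itgal for exoCDN2 and Vcam1, Selplg and Itgal for CDN2 in the difference of effects between doses. Sele held at most 6 reads per tumor after 1 dose of PBS, and this depth limits its fold change. Of 1334 alternative values, 1105 kept their direction and their side of the threshold, or stayed within 1.5 times a count.

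Counts of members called changed as follows. They are given without the share of all genes called under each setting, so they cannot be set against it. DESeq2 called 2 members for 100 against 20 µg, 2 for the amount not labelled, 2 for PBS 2 doses against 1, 2 for exoCDN2 against CDN2 after 1 dose, 3 for CDN2 (20 µg) after 1 dose, 4 for 100 µg and 4 for the exoCDN2 effect between doses. Without the low-count filter these were 2, 4, 4, 3, 5, 5 and 5. With only the groups compared they were 1, 2, 2, 2, 4, 5 and 4, while CDN2 2 doses against 1 fell from 5 to 0, exoCDN2 against CDN2 after 2 doses from 4 to 0 and the CDN2 effect between doses from 4 to 2. With PBS tumors pooled, the amount not labelled gave 0 and CDN2 (20 µg) after 1 dose 3. RLE scaling gave 1 for 100 µg, and the fit of all 18 tumors gave 1 for PBS 2 doses against 1. The unfiltered fit tests many more genes with few counts, and the cause of the other changes was not tested.

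Leaving out 1 tumor at a time gave 0 for CDN2 (20 µg) after 1 dose, 100 µg and the amount not labelled, 0 to 2 for exoCDN2 against PBS after 1 dose, 1 to 3 against unloaded EVs, 0 to 3 for exoCDN2 and 0 to 4 for CDN2 from 1 to 2 doses, 0 to 4 for the carriers after 2 doses and 1 to 3 for the exoCDN2 effect between doses. No call reversed. Among uncalled values, with PBS pooled, Selplg and Itgal were at 0.24 and 0.37 for exoCDN2 after 1 dose and Itgal at 0.51 for CDN2 (20 µg). With 1 tumor left out, 20 of 73 uncalled values changed sign at least once, among them Itgal (-0.75 to 0.31) and Selplg (-0.41 to 0.66) for CDN2 (20 µg) after 1 dose, Selp for 100 against 20 µg (-0.20 to 0.35) and Sele for CDN2 (20 µg) after 2 doses (-0.67 to 0.80).

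Replicate numbers are shared between groups, but over 36 pairs of groups the deviations of same-numbered tumors correlated at 0.0136 on average (-0.184 to 0.319). No pairing common to all groups was seen. The average cannot exclude pairing within some groups. With the replicate block, 0 members were called for CDN2 (20 µg) after 1 dose, 1 for 100 µg and 4 for CDN2 from 1 to 2 doses.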
